A study of Homo sapiens with 6 samples.

Results

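The clustered histone genes encode the linker histone H1 and the core histones H2A, H2B, H3 and H4, and lie side by side in gene clusters, most of them on human chromosome 6 and a smaller number on chromosome 1. They were taken here as the genes whose older symbol begins with HIST1H, HIST2H, HIST3H or HIST4H. Each also needed a probe set annotated with 1 gene symbol, which does not exclude matches of its probes to related sequences. A probe set is a group of short probes whose combined signal gives 1 intensity per array. This rule gave 45 genes of the 19777 genes tested, read from 51 of 54613 probe sets, and the probe set with the highest mean over the 6 arrays stood for each gene. The 45 were 6 H1, 9 H2A, 13 H2B, 8 H3 and 9 H4 genes, of which 2 are pseudogenes, H2AC5P and H4C10P. The array annotation carries the current symbols, so the older ones were found by gene ID in the RefSeq gene table. RefSeq lists 71 protein-coding clustered histone genes, and 43 of them had a probe set of their own, 19 were matched only by probe sets shared with other genes, and 9 had no probe set named.

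The RNA came from the human T-cell acute lymphoblastic leukaemia line KOPTK1, taken after 48 h with vehicle (3 arrays) or with 1 µM PD0332991 (3 arrays). PD0332991, also called palbociclib, inhibits the kinases CDK4 and CDK6, whose activity with D-type cyclins opens the way into S phase. The submitters call the replicates biological triplicates of this 1 line, and the comparison addresses how histone RNAs stood in cells given the inhibitor. Array medians lay between 49.1 and 54.3, and the Pearson correlation between 2 arrays, taken across genes, which are not independent replicates, was 0.993 to 0.996 within a group and 0.976 to 0.979 between groups. All 12 T lineage markers lay above the median gene, with a summed intensity of 37021 to 38967 with vehicle and 45060 to 46960 with PD0332991. Of the 12, 8 were higher in limma, beside 15.6% of all genes and 26.1% of genes above the median gene. The summed level of 4 B lineage markers was 477 to 558 and 735 to 895, with CD79A called higher, and that of 5 myeloid markers 246 to 261 and 215 to 230, with MPO called lower; both genes were named after their values were seen. None of 4 epithelial, 4 fibroblast and 2 erythroid markers was called. Of these lists, the myeloid markers CD14 and LYZ and the fibroblast marker LUM lay below a mean intensity of 16 in both groups. The part of these markers in the results below was not tested.

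Core histones form the spool around which DNA is wound, H2A pairing with H2B and H3 with H4, and H1 binds the linker DNA between spools. Most clustered histone genes are transcribed in S phase under the coactivator NPAT, a substrate of cyclin E-CDK2, and their RNAs end in a conserved stem-loop bound by SLBP in place of a poly(A) tail. A few of them also give polyadenylated RNA, and the histone genes outside the clusters mostly encode replacement variants with ordinary polyadenylated transcripts.

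The promoters of 4 members are shown, chosen by their results below and not by their motifs. They are the brightest lower H1 gene, the member with the lowest log2 fold change and both higher members. H1-2 and H2BC9 were lower with PD0332991 and H2BC12 and H2AC6 were higher. Each sequence holds the 130 bases before the RefSeq start of the gene on GRCh38.p14, 5′ to 3′ on the gene's strand. Capitals mark matches on either strand to the H1 box AAACACA, the CCAAT box, the octamer core TTTGCAT and the TATA box TATAAA.
H1-2, chr6:26056471-26056600, minus strand: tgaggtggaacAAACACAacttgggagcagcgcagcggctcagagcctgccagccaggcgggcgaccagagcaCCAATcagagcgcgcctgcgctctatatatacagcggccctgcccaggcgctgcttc
H2BC9, chr6:26251484-26251613, plus strand: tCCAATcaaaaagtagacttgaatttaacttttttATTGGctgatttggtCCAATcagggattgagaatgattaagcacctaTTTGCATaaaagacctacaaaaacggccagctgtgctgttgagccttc
H2BC12, chr6:27146859-27146988, minus strand: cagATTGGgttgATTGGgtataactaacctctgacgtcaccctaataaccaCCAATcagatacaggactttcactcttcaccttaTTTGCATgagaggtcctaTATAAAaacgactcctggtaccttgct
H2AC6, chr6:26124042-26124171, plus strand: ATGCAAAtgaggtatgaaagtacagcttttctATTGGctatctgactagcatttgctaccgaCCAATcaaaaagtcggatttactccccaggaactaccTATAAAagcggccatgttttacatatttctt

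Clustered histone RNAs were mostly lower with PD0332991 where they were called. Of the 45 genes, 15 were lower (33.3%) and 2 higher (4.44%) in limma at an adjusted p under 0.05, where 13.6% of all genes were lower and 15.6% were higher. Without adjustment, 16 and 2 had a p under 0.05. The median log2 fold change, taken as PD0332991 minus vehicle on log2(intensity + 16), was −0.23 over the 45 and 0.01 over all genes. Single genes ran from −1.98 for H2BC9 to 0.44 for H2AC6, with 35 below zero and 10 above. The arrays of the groups did not overlap for 18 genes that were lower and 2 that were higher, beside 20.0% and 23.0% of all genes. In bulk RNA of a culture, fewer cells that hold a transcript and less of it per cell cannot be told apart.

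Many of the 45 were dim on these arrays. The brighter group's mean lay above the median gene, at an intensity of 89.3, for 11 of them, and of these 6 were lower and 1 higher, with a median of −0.42. Among the 10166 genes of the whole table as bright as that, 23.6% were lower and 26.1% higher. Another 9 members lay below an intensity of 16 in both groups: H1-1, H2AC5P, H2AC14, H2BC1, H2BC11, H2BC13, H2BC15, H3C8 and H3-4. With a pseudocount of 1 the median over the 45 was −0.46 and with 64 it was −0.14, since the pseudocount shrinks the change of a dim gene.

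**Figure D1:**
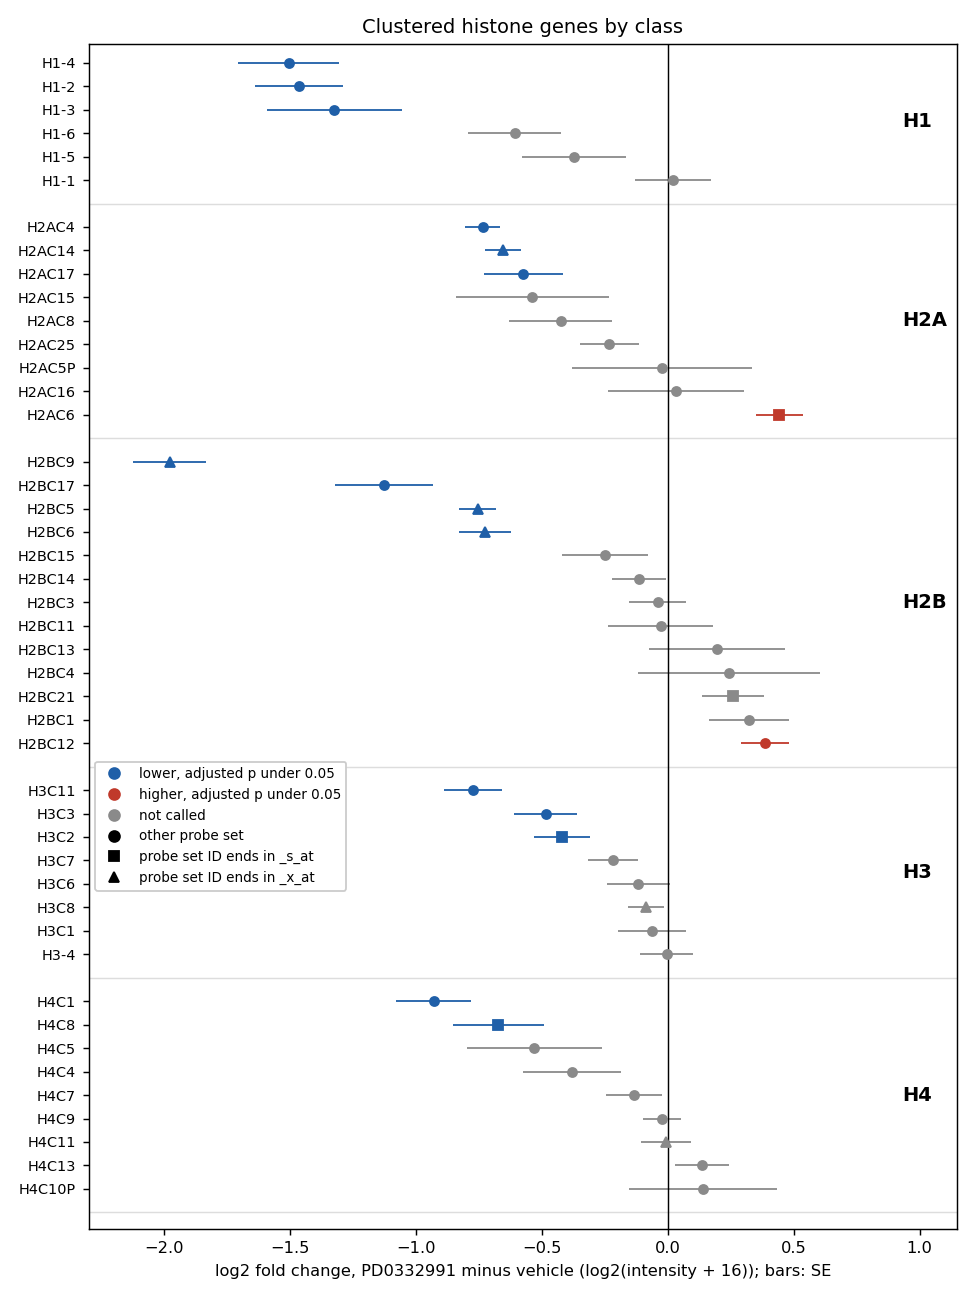
Log2 fold change of each of the 45 clustered histone genes, PD0332991 minus vehicle on log2(intensity + 16), grouped by class, with bars of 1 SE from limma on 6 arrays. Blue points (15) were lower, red points (2) higher and grey points (28) not called; squares and triangles mark probe sets whose ID ends in _s_at and _x_at, suffixes that Affymetrix gives to probe sets that may match related transcripts.

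**Figure D2:**
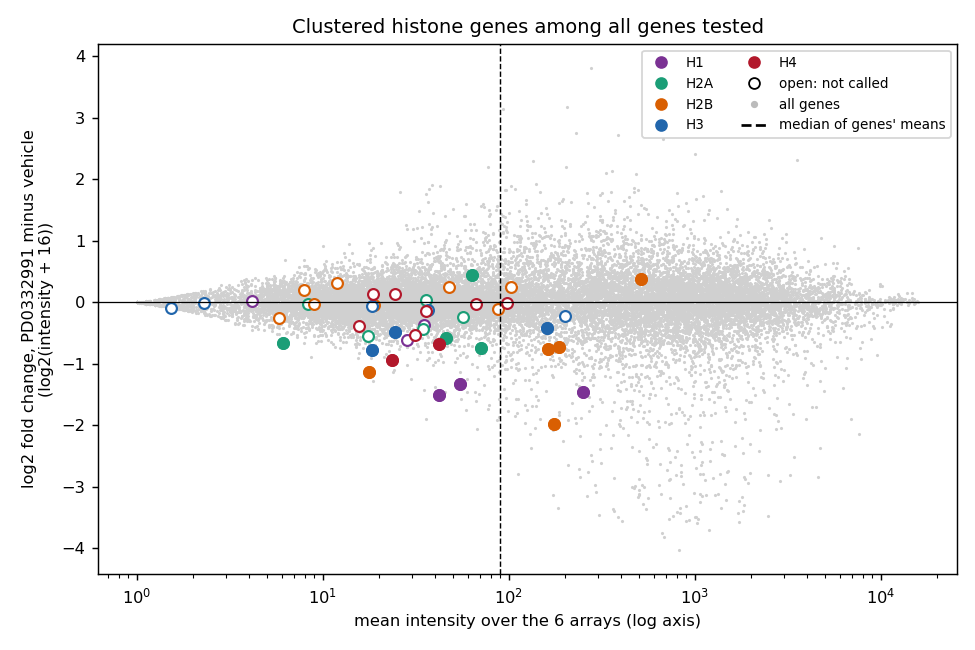
Log2 fold change against mean intensity over the 6 arrays (log axis) for all 19777 genes in grey and the clustered histone genes in colour by class, with open circles for those not called. The dashed line is the median gene at 89.3; most of the coloured points lie to its left, and H1-2 and H2BC9 lie lowest to its right.

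The linker histone genes had the lowest class median, −0.97, with 3 of 6 lower (50%), beside 13.6% of all genes, and none higher. H1-2, which encodes the somatic subtype H1.2, read 292, 360 and 483 on the vehicle arrays and 121, 134 and 119 on the PD0332991 arrays. All vehicle arrays stood above all PD0332991 arrays. The means were 378 ± 96.6 and 124 ± 8.29 (SD, n = 3 each), and the change on the log2 scale was −1.46 (SE 0.18, limma adjusted p = 0.0017). H1-4, another somatic subtype, gave 50.2, 64.1 and 96.2 with vehicle and 12.6, 11.3 and 17.4 with the inhibitor. Its groups did not overlap either, and the change was −1.50 (SE 0.20, limma adjusted p = 0.0026), or 2.84-fold. H1-3 went from 59.6, 71.6 and 124 to 14.7, 24.7 and 31.4, again without overlap, with a change of −1.32 (SE 0.27, limma adjusted p = 0.013). In all 3 genes the highest vehicle array was replicate 3.

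Among the other H1 genes, the testis-type linker histone gene H1-6 came nearest to the threshold. It read 44.0, 32.3 and 34.9 with vehicle and 10.5, 25.3 and 22.1 with PD0332991. These groups do not overlap, and the log2 fold change was −0.61 (SE 0.18, limma adjusted p = 0.054). H1-6 passed without PD0332991 replicate 2 (adjusted p = 0.048) and also with median centring, a pseudocount of 64, the mean of its probe sets, a trend in the prior variance, or array weights. H1-5 had a log2 fold change of −0.37 with overlapping groups, and H1-1, below 16 on every array, one of 0.02. The size depended on the pseudocount, from −2.24 (pseudocount 1) to −0.77 (pseudocount 64) for H1-4, from −1.80 to −0.75 for H1-3 and from −1.57 to −1.21 for H1-2, so that the order of H1-4 and H1-2 turned.

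Of the 9 H2A genes, 3 were lower (33.3%) and 1 was higher (11.1%), beside 13.6% and 15.6% of all genes. The class median was −0.43. H2AC4, which encodes a canonical H2A, read 87.3, 89.2 and 101 with vehicle and 46.6, 50.4 and 50.4 with PD0332991. The vehicle arrays were higher in each case and close together, at 92.5 ± 7.41 against 49.1 ± 2.20 (SD, n = 3 each), and the change was −0.74 (SE 0.07, limma adjusted p = 6.9e-04). H2AC17 gave 46.0, 51.9 and 78.3 with vehicle and 34.5, 33.6 and 32.2 with the inhibitor, a change of −0.57 (SE 0.16, limma adjusted p = 0.039) between groups that did not overlap. H2AC14, read by an _x_at probe set, was dim throughout, at 11.3, 8.84 and 13.0 against 1.0, 1.39 and 1.0. The log2 fold change was −0.66 (SE 0.07, limma adjusted p = 0.0012), and it was −2.49 with a pseudocount of 1 and −0.20 with 64.

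Of the 9 H2A genes measured, only H2AC6 was called higher. It read 54.7, 48.3 and 51.1 on the vehicle arrays and 86.3, 66.0 and 75.4 on the PD0332991 arrays, through an _s_at probe set. Every PD0332991 array lay above every vehicle array, and the means of 51.4 ± 3.18 and 75.9 ± 10.1 (SD, n = 3 each) differed by 0.44 on the log2 scale (SE 0.09, limma adjusted p = 0.016). The other 5 H2A genes ranged from −0.54 for H2AC15 to 0.03 for H2AC16. Of these, H2AC8 had groups that did not overlap, at 48.2, 40.1 and 36.1 against 32.6, 35.3 and 15.1, with a change of −0.43 that did not pass (limma adjusted p = 0.19). The H2AC6 call was lost without vehicle replicate 2 (limma adjusted p = 0.061) or PD0332991 replicate 3 (0.053), and H2AC15 passed as lower without PD0332991 replicate 1 (−0.86, 0.031). That of H2AC17 was lost when vehicle replicate 2 (0.072) or any of the PD0332991 arrays (0.096, 0.099 and 0.11 for replicates 1 to 3) was left out.

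The H2B genes held both directions of change, with H2BC9 lower and H2BC12 higher. Of 13, 4 were lower (30.8%) and 1 was higher (7.69%), beside 13.6% and 15.6% of all genes. The class median was −0.04. H2BC9 read 292, 261 and 307 with vehicle and 50.6, 55.6 and 78.6 with PD0332991. The groups lay far apart, at 287 ± 23.0 and 61.6 ± 15.0 (SD, n = 3 each), and the log2 fold change was −1.98 (SE 0.14, limma adjusted p = 2.5e-04), or 3.94-fold. It was −2.22 with a pseudocount of 1 and −1.49 with 64, and with 1 the values of H2AC14, H2BC17 and H1-4 were lower than that of H2BC9. H2BC17 was dimmer, at 27.7, 19.6 and 44.3 with vehicle and 5.86, 5.61 and 3.06 with the inhibitor. Its groups stayed apart, and the change was −1.13 (SE 0.19, limma adjusted p = 0.0069), or −2.40 with a pseudocount of 1 and −0.45 with 64.

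Smaller decreases were read for H2BC5 and H2BC6. The H2BC5 probe set gave 211, 197 and 214 on the vehicle arrays and 106, 120 and 123 on the PD0332991 arrays. Vehicle and inhibitor did not overlap, and the change was −0.76 (SE 0.07, limma adjusted p = 7.1e-04). H2BC6 went from 224, 232 and 249 to 116, 152 and 141, also without overlap, a change of −0.73 (SE 0.10, limma adjusted p = 0.0031). The probe sets of H2BC9, H2BC5 and H2BC6 all end in _x_at, the mark of probes that can match other sequences. With _x_at probe sets left out, 1 of 10 H2B genes was lower, and the class median became 0.08.

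H2BC12, a canonical H2B gene that also gives polyadenylated RNA, was higher with PD0332991. It read 407, 434 and 485 with vehicle and 528, 632 and 587 with the inhibitor. All 3 PD0332991 arrays exceeded all vehicle arrays, at 582 ± 52.4 against 442 ± 39.4 (SD, n = 3 each), and the log2 fold change was 0.39 (SE 0.10, limma adjusted p = 0.028), or 1.31-fold. The 8 H2B genes that were not called ranged from −0.25 for H2BC15 to 0.32 for H2BC1, and their groups overlapped in each case. The H2BC12 call was lost without vehicle replicate 1 (limma adjusted p = 0.090) or 2 (0.087) or without PD0332991 replicate 2 (0.079) or 3 (0.083). Without vehicle replicate 3, H2BC1, a testis-type H2B gene, passed as higher at 0.48 (0.031), while it read 3.82, 8.42 and 14.6 with vehicle and 16.4, 14.4 and 13.4 with PD0332991.

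All 8 H3 genes had a log2 fold change below zero on the probe set used. Of these, 3 passed as lower (37.5%), beside 13.6% of all genes. For H3C6 the direction turned with the mean of its probe sets, which was higher at 0.46 (limma adjusted p = 0.011). The class median was −0.17. H3C11 read 23.4, 23.7 and 35.2 with vehicle and 8.42, 8.62 and 10.7 with PD0332991. There was no overlap, and the change of −0.77 (SE 0.12, limma adjusted p = 0.0041) became −1.46 with a pseudocount of 1 and −0.32 with 64. H3C3 went from 27.4, 27.5 and 38.6 to 21.4, 17.4 and 14.1, a change of −0.49 (SE 0.13, limma adjusted p = 0.032) with groups that stayed apart. It was −0.79 with a pseudocount of 1 and −0.22 with 64. H3C2, read by an _s_at probe set, gave 217, 173 and 170 against 134, 123 and 148. The vehicle arrays were all higher, by −0.42 on the log2 scale for PD0332991 minus vehicle (SE 0.11, limma adjusted p = 0.036).

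H3C7, also a core H3 gene of chromosome 6, did not pass. It read 211, 197 and 237 with vehicle and 162, 193 and 194 with PD0332991, which do not overlap, and its log2 fold change was −0.22 (limma adjusted p = 0.17). The other H3 genes that did not pass lay between −0.12 for H3C6 and −0.00 for H3-4. The H3C3 call was lost without vehicle replicate 1 (limma adjusted p = 0.058), 2 (0.057) or 3 (0.056), as well as PD0332991 replicate 2 (0.086) or 3 (0.094). For H3C2 it was lost when vehicle replicate 1 (0.071), vehicle replicate 2 (0.063) or any PD0332991 array (0.095, 0.10 and 0.051 for replicates 1 to 3) was left out, and at a pseudocount of 1 (0.052).

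Among the 9 H4 genes, 2 were lower (22.2%) and none higher, beside 13.6% and 15.6% of all genes. The class median was −0.13. H4C1 read 40.2, 42.1 and 25.2 with vehicle and 12.2, 12.2 and 8.4 with PD0332991. Its groups did not overlap, and the log2 fold change was −0.93 (SE 0.15, limma adjusted p = 0.0051), or −1.61 with a pseudocount of 1 and −0.41 with 64. H4C8 gave 50.5, 58.5 and 55.3 against 21.6, 23.2 and 43.1 on an _s_at probe set. Here PD0332991 replicate 3 stood nearer to the vehicle arrays than the other two, and the change was −0.67 (SE 0.18, limma adjusted p = 0.036).

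The 2 brightest H4 genes, H4C11 and H4C9, did not pass. H4C11, on an _x_at probe set, read 100, 83.5 and 109 with vehicle and 91.8, 104 and 94.3 with the inhibitor. H4C9 read 72.4, 67.8 and 61.6 against 62.6, 71.3 and 64.1. Both overlapped between groups, with log2 fold changes of −0.01 (SE 0.10) and −0.02 (SE 0.08). The 7 H4 genes that were not called ranged from −0.53 for H4C5 to 0.14 for H4C10P. The H4C8 call was lost without vehicle replicate 1 (limma adjusted p = 0.080), 2 (0.11) or 3 (0.086), without PD0332991 replicate 1 (0.10) or 2 (0.11), under array weights (0.052) and at a pseudocount of 1 (0.060). With the mean of its probe sets H4C8 stood at −0.17 (0.33), and with _x_at and _s_at probe sets left out the direction turned, to 0.34 (0.15).

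**Figure D3:**
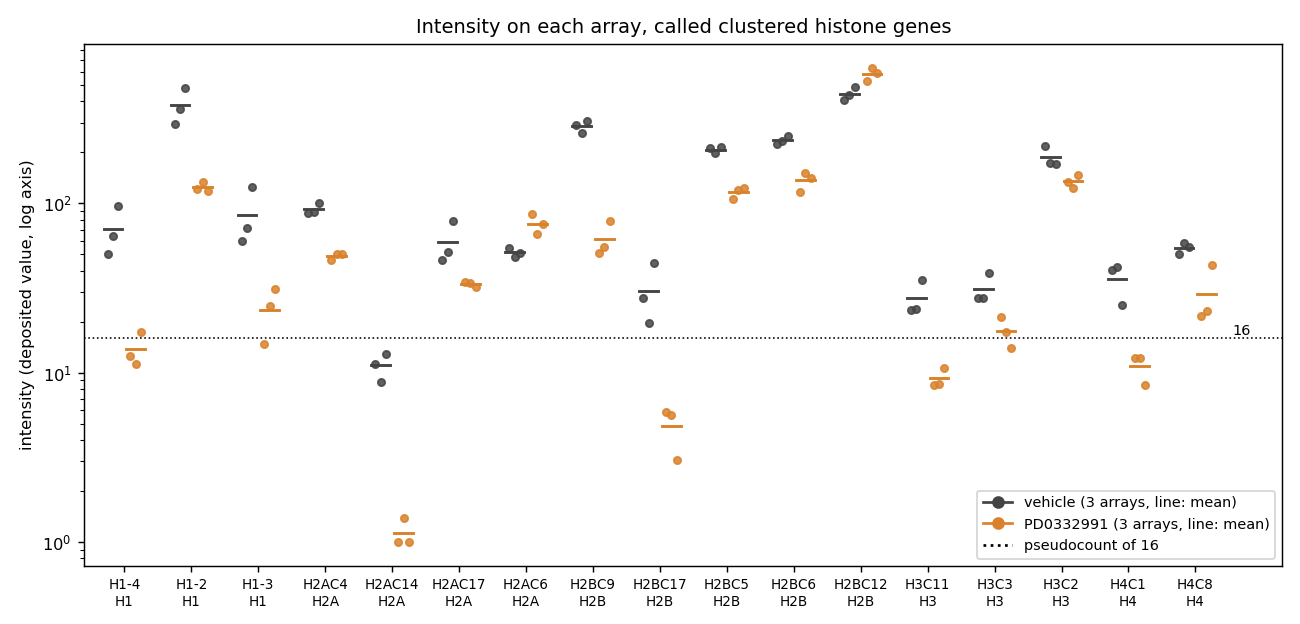
Deposited intensity on each of the 6 arrays (log axis) for the 17 clustered histone genes called in limma, with vehicle in grey, PD0332991 in orange and a line at each group's mean of 3 arrays. The groups of each gene do not overlap; H2AC6 and H2BC12 have PD0332991 above vehicle, and the H2AC14 values lie wholly below the pseudocount of 16.

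A second probe set of its own was present for 6 members, and these pairs did not always move alike. Fitted over all 54613 probe sets, 10.2% of which were lower and 10.7% higher, both H2BC5 probe sets were lower, at −0.76 and −0.56 (limma adjusted p = 0.0013 and 0.016). Both of them end in _x_at, so their signals may include related sequences. The dimmer probe set of H3C6 read 5.03, 13.8 and 4.25 with vehicle and 27.7, 35.6 and 33.1 with PD0332991. It was higher without overlap, by 1.04 (SE 0.16, limma adjusted p = 0.0063), whereas the brighter one had −0.12 and overlapping groups. For H4C8 the brighter probe set was lower, at −0.67, and the other read 39.2, 35.9 and 22.6 against 44.3, 48.2 and 42.1. That one had PD0332991 above vehicle on every array, with a log2 fold change of 0.34 that did not pass (limma adjusted p = 0.16). With both averaged, H4C8 had −0.17 (adjusted p = 0.33) and H3C6 0.46 (adjusted p = 0.011). Neither probe set of H1-6, H2AC15 or H2AC25 was called, and each of their pairs had log2 fold changes below zero. Of all 51 probe sets of the members, 16 were lower and 3 higher.

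Many clustered histone genes have nearly identical coding sequences, and 20 further probe sets matched several genes at once, so no gene can be named from them. Of these, 11 were lower and none higher in the fit over all probe sets (12 and none without adjustment), with a median log2 fold change of −0.42 and of 0.01 over all probe sets. A probe set matching 14 H4 genes read 7433, 7892 and 8486 with vehicle and 2833, 3126 and 2835 with PD0332991. The groups were far apart, at 7937 ± 528 and 2931 ± 169 (SD, n = 3 each), with a change of −1.43 (SE 0.08, limma adjusted p = 1.5e-04), or 2.70-fold. Of 4 others that match these 14 genes, 1 was lower at −0.91 (adjusted p = 0.0084) and 3 were not called, at −0.19, −0.12 and 0.02.

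The lowest log2 fold change of all probe sets of clustered histone genes was in a probe set matching H2AC18 and H2AC19, neighbouring H2A genes of the chromosome 1 cluster. It read 1770, 1816 and 2546 with vehicle and 431, 454 and 513 with PD0332991. Without overlap, the change was −2.08 (SE 0.16, limma adjusted p = 4.1e-04), or 4.23-fold. The other 2 probe sets of this pair of genes had log2 fold changes of 0.21 (adjusted p = 0.21) and 0.04 (adjusted p = 0.84), with overlapping groups. Both probe sets matching 6 H2A genes of chromosome 6 were lower, at −0.83 and −0.84 (limma adjusted p = 0.0050 and 0.0024). All 3 probe sets matching 5 H2B genes were lower too, at −0.38, −0.55 and −0.87. Neither of the 2 probe sets matching 10 H3 genes was called, at −0.35 and −0.15, while both probe sets that match H3 and H2A genes together were lower, at −0.65 and −0.66.

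**Figure D4:**
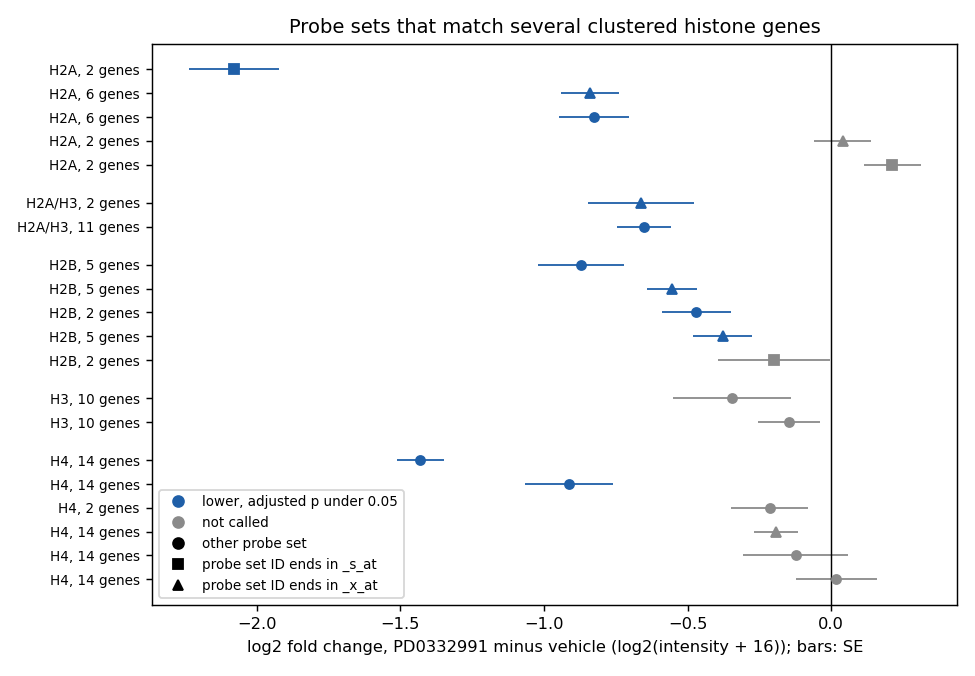
Log2 fold change of the 20 probe sets that match several clustered histone genes, PD0332991 minus vehicle on log2(intensity + 16), labelled by class and number of genes, with bars of 1 SE. The 11 blue points were lower in limma, down to −2.08 for a probe set of 2 H2A genes, and no probe set was higher.

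By position, 42 of the 45 members belong to the large cluster of chromosome 6, and all 17 called genes are among them. In RefSeq order, the first run of neighbouring clustered genes there, H2AC1 to H3C9P, held 26 members, of which 11 were lower and 1 higher, with a median of −0.42. Runs were cut where neighbours lay more than 25 gene places apart. A middle run from H2BC11 to H2AC12 held 3 members, of which none was lower and H2BC12 was higher. The last, H4C10P to H2BC17, held 13 members, of which 4 were lower, with a median of −0.25. Over all genes, 13.6% were lower and 15.6% higher. The only members on chromosome 1 were H2BC21, at 0.26, and H2AC25 and H3-4, at −0.23 and −0.00, and none was called. Other genes there were read only through shared probe sets or not at all. A shared probe set of H2AC18 and H2AC19 on chromosome 1 was lower, at −2.08. The other probe sets of that pair, at 0.21 and 0.04, were not called.

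H2A and H2B genes often start back to back and share the DNA between them. RefSeq order and strand gave 11 such pairs, and both genes were measured in 4. H2AC17 and H2BC17 were both lower, at −0.57 and −1.13. H2AC14 was lower at −0.66 beside H2BC14 at −0.11, which was not called. H2AC6 was higher at 0.44 beside H2BC4 at 0.24, where the groups overlapped. Neither H2AC15 at −0.54 nor H2BC15 at −0.25 was called.

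Members known to give polyadenylated RNA besides the stem-loop form went both ways. Of 5 listed, H1-2 and H2BC5 were lower (40%) and H2AC6 and H2BC12 were higher (40%), beside 13.6% and 15.6% of all genes. The list was fixed with the results of 2 of the 5 known, and no support is drawn from it. H2BC21, a chromosome 1 H2B gene, read 78.8, 90.7 and 108 with vehicle and 121, 99.6 and 120 with PD0332991. Its groups overlapped, and the log2 fold change of 0.26 (SE 0.12) did not pass (limma adjusted p = 0.18). The sources used here do not give how the label reaction was primed, and its part in which histone RNAs were read was not tested.

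Of the motifs capitalised in the promoters above, the H1 box, the octamer core and CCAAT differed most by class among the members. A promoter of 300 bases, from 250 before to 50 after the RefSeq start, was found for 41 of the 45 members, and both strands were searched. The H1 box AAACACA, a motif of linker histone promoters, was in 6 of 6 H1 promoters and in no other member, and in 5.76% of all 27305 promoters. Over all protein-coding clustered genes with a promoter it was also in 1 of 16 H2A and 2 of 13 H3 genes. The octamer core TTTGCAT, which OCT1 binds in H2B promoters, was in 10 of 13 H2B and 6 of 8 H2A promoters and in no H1, H3 or H4 member, against 4.51% of all promoters, and in 1 of 13 H3 genes over all protein-coding clustered genes. CCAAT was in 36 of 41 members and 35.7% of all promoters, and only 2 of 7 H4 members held it. TATAAA was in 28 of 41 members and 12.0% of all promoters. Counted over all motifs and both strands together, matches overlapped at 3 places in the members.

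By call, the octamer core was in 6 of 13 lower members with a promoter, in both higher members and in 8 of 26 that were not called. Within H2B it was in 3 of 4 lower genes, in H2BC12 and in 6 of 8 that were not called. H2BC9, lower, and H2BC12, higher, both hold TTTGCAT in the stretch printed, with CCAAT upstream of it, and TATAAA is capitalised there only in H2BC12. The H1 box was in the promoters of the 3 lower and the 3 other H1 genes alike. CCAAT was in 12 of 13 lower members and 22 of 26 not called, and TATAAA in 9 and 17. These are matches of letters and no measure of binding.

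Histone genes outside the clusters were lower where called. Of 20 listed, 14 were measured. In limma 7 were lower (50%) and none higher (also 7 and none without adjustment), beside 13.6% and 15.6% of all genes. Of the 14, 8 had a brighter group above the median gene, where 23.6% of genes were lower and 26.1% higher. The 14 had a median log2 fold change of −0.38. CENPA, the centromeric H3 variant, went from 777, 708 and 783 with vehicle to 48.7, 43.4 and 58.5 with PD0332991. That was a change of −3.55 (SE 0.10, limma adjusted p = 2.4e-05), with groups far apart, read by an _x_at probe set. H2AX, the variant phosphorylated at DNA breaks, read 3466, 3550 and 3849 against 723, 940 and 908. It did not overlap and fell by 2.07 (SE 0.11, limma adjusted p = 9.1e-05). H1-10, a replacement linker histone, H2AZ2 and H2AZ1, both H2A.Z variants that mark promoters, had log2 fold changes of −1.22, −1.13 and −0.92.

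H2AJ, a replacement H2A, read 58.3, 80.2 and 79.7 with vehicle and 17.5, 47.8 and 32.3 with PD0332991. Its groups did not overlap, and the change of −0.91 passed (limma adjusted p = 0.037), but it lost the call when vehicle replicate 1 (0.058), 2 (0.11) or 3 (0.098) or PD0332991 replicate 1 (0.058) or 3 (0.090) was left out. With _x_at probe sets left out, H2AJ stood at 0.16 and was not called, CENPA and H2BC12L had no probe set left, and 4 of 12 such genes were lower. The seventh lower gene was H2BC12L, at −0.31, named after its value was seen. H3-3A, which encodes the replacement histone H3.3, had −0.17 and did not pass (limma adjusted p = 0.15). H3-3B was not analysed here.

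A list of factors of histone gene transcription, of the stem-loop end and of histone RNA decay was also read. Of 29 measured, 14 were lower (48.3%) and 5 higher (17.2%), with a median log2 fold change of −0.15. All 29 lay above the median gene, where 23.6% of genes were lower and 26.1% higher. CCNE2, a cyclin E, read 3012, 3125 and 3045 with vehicle and 461, 560 and 625 with PD0332991. That was the largest change of the list, −2.46 (SE 0.11, limma adjusted p = 5.3e-05), with no overlap. CCNE1 and the kinase CDK2 had −1.54 and −1.46. NPAT, the coactivator of histone genes, went from 954, 943 and 925 to 564, 542 and 544, tight groups that gave −0.76 (SE 0.05, limma adjusted p = 2.0e-04).

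SLBP, which binds the stem-loop of histone RNA, read 5295, 5336 and 5402 with vehicle and 2133, 2339 and 2335 with PD0332991. The arrays did not overlap, and the change was −1.23 (SE 0.06, limma adjusted p = 6.6e-05). CASP8AP2, or FLASH, and LSM11, a subunit of the U7 particle, both needed to cut the RNA after the stem-loop, had −1.22 and −1.19. The 5 higher genes, named after their values were seen, were CDK9 at 0.73, TUT7 at 0.49, GON4L at 0.43, MBLAC1 at 0.37 and LSM1 at 0.26. Only 3 factors were higher when vehicle replicate 2 or PD0332991 replicate 2 or 3 was left out. For a gene set read from the same arrays, all 25 of 25 replication fork genes were lower, with a median of −1.61 and a range of −2.82 to −0.64. All 25 lay above the median gene, where 23.6% of genes were lower, beside 13.6% of all genes.

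**Figure D5:**
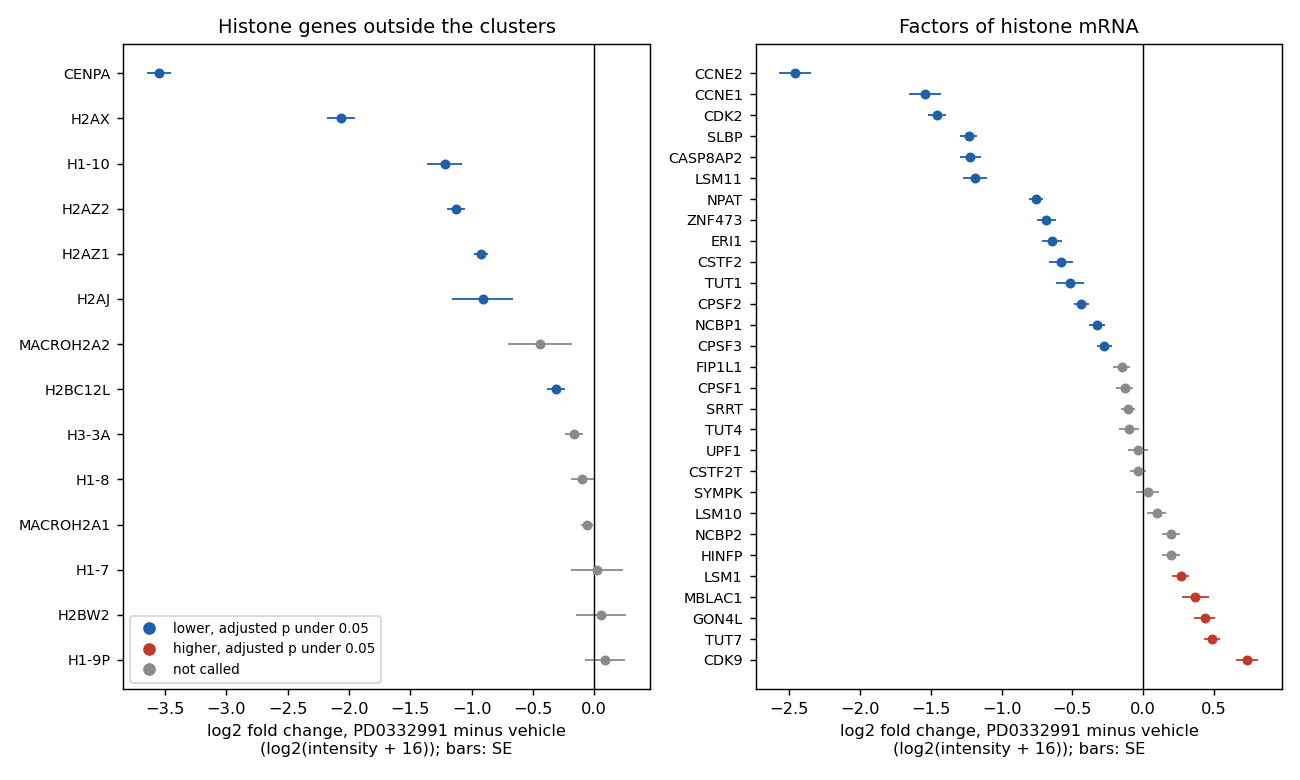
Log2 fold change, PD0332991 minus vehicle on log2(intensity + 16), of 14 histone genes outside the clusters (left) and 29 factors (right), with bars of 1 SE. The factors are those of histone gene transcription, of the stem-loop end and of histone RNA decay. CENPA at −3.55 and CCNE2 at −2.46 lie lowest in their panels; 7 genes on the left and 14 on the right were lower (blue), and 0 and 5 were higher (red).

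Among the vehicle arrays, replicate 3 was the highest for 27 of the 45 clustered histone genes (60.0%) and for 12 of the 15 that fell, beside 47.1% of all genes. Without that array 13 of the 45 were lower, 3 were higher and the median was −0.20. Over the 6 settings that leave out 1 array, 11 to 13 genes were lower. The number higher was 1 without vehicle replicate 1 or PD0332991 replicate 2, and 0 without vehicle replicate 2 or PD0332991 replicate 3. Of the 17 called genes, 11 kept their call under every alternative that gave a value, and the 6 others were H2AC6, H2AC17, H2BC12, H3C2, H3C3 and H4C8.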

How the data were processed

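Total RNA of 3 vehicle and 3 PD0332991 cultures was biotin-labelled and hybridised to one-colour Affymetrix arrays, per the labels' protocols. The authors deposited 1 linear intensity per probe set and array, from 0.56 to 16362; summarisation, background correction and scaling are not given in the sources used here. The values carry no detection calls, and 25.5% lay below 16. Scaling makes each value relative to its array's other RNAs.

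Values were taken as log2(intensity + 16), which understates changes of dim genes. Probe sets with 1 gene symbol were assigned to genes by gene ID, older symbols came from the synonyms of RefSeq GRCh38.p14, and the brightest probe set stood for its gene. Where RefSeq lists several older names the class was the same. The test was limma's (version 3.58.1, R 4.3.3; lmFit, eBayes, two-sided, 4 residual degrees of freedom), with p Benjamini-Hochberg adjusted over all 19777 genes or all 54613 probe sets, at 0.05. The script was tested on simulated data.

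Alternatives changed the arrays used, replicate block, scaling, pseudocount, filter, probe sets, moderation and weights. The genes, lists and alternatives were chosen with earlier results of these data known. The text names every called member, the 2 brightest per class, members with probe sets called in opposite directions (there were none), up to 6 called genes of each of 2 lists with the largest change, and 8 fixed genes; others are named after their values were seen. No list was tested as a set.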

Additional observations from a re-analysis of the deposited data

How the results depend on the processing

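Of the 20 alternatives run, 1 (the brightest probe set by its mean log2 value) was chosen after seeing the data, as was the count over probe sets shared by several genes. Leaving out 1 array gave 11 to 13 lower and 0 to 3 higher members, 0 to 1 higher H2A, 0 to 2 higher H2B, 1 to 2 lower H3, 1 to 2 lower H4 genes and 3 to 6 higher factors. With the replicate number as a block, 12 members were lower, 2 higher and 1 H3 gene lower; H2AC17 (adjusted p = 0.068), H3C2 (0.062) and H3C3 (0.090) lost their call, and no other member's call changed. Deviations of same-numbered arrays correlated at 0.0034, 0.076 and 0.083, not every array correlated best with its own number, and the numbers were not taken as pairs.

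The median of the members was −0.46 with a pseudocount of 1, which left 1 lower H4 gene, and −0.14 with 64. Among genes brighter than the median, 6 members were lower and 1 higher with a median of −0.42, among them 1 H1, 1 H2A, 1 H3 and 0 H4 genes lower and 0 H2A higher. The mean of a gene's probe sets gave 1 higher H3 gene, H3C6 at 0.46, and 1 lower H4 gene. Without _x_at probe sets, 1 H2B gene and 4 non-clustered histone genes were lower, the H2B median was 0.08 and H2AJ 0.16. Without _x_at and _s_at probe sets, 9 members were lower and 1 higher, with 0 H2A higher, 1 H2B, 1 H4 and 2 non-clustered genes lower, H4C8 at 0.34 and H2AJ at 0.16. Array weights left 1 lower H4 gene. Fewer genes and other probe sets enter these settings by construction; otherwise the cause was not tested. Quantile normalization, median centring, a trend or robust prior, the brightest probe set by mean log2 value and testing all probe sets gave 15 or 16 members lower and 2 higher.

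The 3 arrays per group limit the precision, and a dim probe set cannot be told from background. A call missed here does not show that a gene did not change.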
